A study of Mus musculus with 4 samples.

Results

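The genes described here are those of the epidermal growth factor (EGF) receptor family and its ligands, 10 of the 32285 genes in each matrix. They were chosen by name: the receptors Egfr, Erbb2 and Erbb3, the receptor inhibitor Errfi1, and the ligands Areg, Ereg, Epgn, Btc, Hbegf and Tgfa. All 10 passed the minimum of 50 unique molecular identifiers (UMIs) over both libraries of a time point in keratinocytes, and each was followed by keratinocyte compartment and in stroma and immune cells. The data are droplet-based single-cell RNA sequencing of adult mouse back skin epidermis in 4 libraries, 1 per group. Control mice were DNp63fl/fl, with loxP sites in the gene of the transcription factor p63, Trp63. Experimental mice were DNp63fl/fl;K14-CreT2, which also carry a Cre recombinase that tamoxifen switches on, driven in basal keratinocytes by the promoter of keratin 14, for deletion of the ΔNp63 isoform. All mice, controls included, received 200 mg/kg tamoxifen daily by oral gavage for 5 days, and their cells were collected either 1 day or 1 week later. Animals of both sexes, 2 to 17 months old, were used, and the labels do not say how many animals entered a library.

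The EGF receptor and its relatives are tyrosine kinases in the membrane of epithelial cells, which pair up when a ligand binds and signal through the Ras and MAP kinase cascade. The ligands are made as membrane proteins and are released by proteases, and Hbegf, Areg, Tgfa and their relatives act on the cell that makes them and on its neighbours. In skin the pathway is known for keratinocyte growth, wound closure and hair follicle cycling. Errfi1 (also called MIG6) binds the active kinase domain and shuts it down, and its gene is itself induced by receptor signalling.

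Of the 6 ligands, 4 lie side by side on chromosome 5 in the GENCODE release for GRCm38. Epgn (ENSMUSG00000035020) spans 91027464 to 91035215, Ereg (ENSMUSG00000029377) 91074622 to 91093646 and Areg (ENSMUSG00000029378) 91139599 to 91148432, all on the plus strand. Btc (ENSMUSG00000082361) spans 91357261 to 91402994 on the minus strand. These 4 are the only protein-coding genes annotated wholly inside that stretch of 375.5 kb. Egfr (11: 16752203 to 16918158) and Erbb2 (11: 98412470 to 98437716) share chromosome 11, Erbb3 is on 10 (128567523 to 128589652), Errfi1 on 4 (150853919 to 150868892), Tgfa on 6 (86195223 to 86275719) and Hbegf on 18 (36504927 to 36515805).

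Since these neighbours were measured side by side below, the sequence before their start sites is shown for Areg, Epgn and Btc, from RefSeq promoter windows on GRCm38.p6. Windows were found for 7 of the 10 genes, with 8 windows in all. Capitals mark a cAMP response element (TGACGTCA) and a TATA box (TATAAA), searched on both strands in the 250 bases before the RefSeq start. The Areg window lies at chr5:91139349-91139598 on the plus strand, the Epgn window at chr5:91027267-91027463 on the plus strand, cut short before the first annotated exon, and the Btc window at chr5:91402995-91403244 on the minus strand.
Areg: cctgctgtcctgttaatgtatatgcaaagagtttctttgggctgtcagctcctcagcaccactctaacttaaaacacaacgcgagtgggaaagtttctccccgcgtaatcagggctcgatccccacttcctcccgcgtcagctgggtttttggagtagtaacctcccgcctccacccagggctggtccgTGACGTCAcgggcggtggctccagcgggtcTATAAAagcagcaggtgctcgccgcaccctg
Epgn: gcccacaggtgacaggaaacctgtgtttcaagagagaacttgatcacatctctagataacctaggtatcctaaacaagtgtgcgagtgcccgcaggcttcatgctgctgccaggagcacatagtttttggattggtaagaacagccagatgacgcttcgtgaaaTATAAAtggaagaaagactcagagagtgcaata
Btc: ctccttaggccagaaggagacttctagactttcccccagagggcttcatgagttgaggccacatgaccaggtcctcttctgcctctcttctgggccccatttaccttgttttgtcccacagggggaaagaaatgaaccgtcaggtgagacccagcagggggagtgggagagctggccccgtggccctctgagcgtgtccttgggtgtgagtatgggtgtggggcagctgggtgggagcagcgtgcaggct
The Areg window holds a cAMP response element whose first base is at -61 and a TATA box at -31. The Epgn window holds a TATA box at -86, counted from a RefSeq start that lies past the end of the printed stretch. The Btc window holds neither motif. Of all 32851 windows of this length, 1.55% held the cAMP response element, and among the members' windows it was in those of Areg and Errfi1. The TATA box was in 12.4% of all windows and in those of Errfi1, Epgn and Areg. Windows with an AP-1 site (TGANTCA) made up 6.75% of all and with a p53 family half-site 7.13%, and neither was in a window of a member. A match describes letters and does not show that a factor binds.

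UMI totals per library ran from 68191870 to 179736563 over 18413 to 33552 barcodes, and medians per barcode were 3488 to 4209.5 UMIs in the 1-day and 1298 to 1617 in the 1-week pair. A 3′ kit was used at 1 day and a 5′ kit at 1 week, so levels were compared only within a time point. The libraries stand apart in depth: the shallowest listed barcode had 500 UMIs in both controls, 1368 in the 1-day and 1059 in the 1-week experimental library. The 2 libraries of 1 day share 299 barcodes (0.928% of the smaller) and those of 1 week 661 (3.59%). Levels are given as CPM, a gene's UMIs summed over the cells of a class and scaled to 1000000 UMIs of that class. Trp63 stood at 403 and 128 CPM in control and experimental keratinocytes at 1 day, and at 444 and 162 at 1 week. The labels do not give the deleted exons, so this counts transcripts of the gene and does not check the deletion itself. With 1 library per group there is no test, and all intervals are 95% intervals of counting error only.

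Keratinocytes of the experimental library held more ligand RNA than those of the control at both times, while the receptors stayed within 2-fold. At 1 day 5 of the 10 genes, all ligands, were at least 2-fold higher (Areg, Hbegf, Btc, Ereg and Epgn) and none was 2-fold lower. Of the 13303 genes with at least 50 UMIs, 5.17% were at least 2-fold higher and 2.3% at least 2-fold lower. At 1 week 3 of the 10 were at least 2-fold higher (Ereg, Btc and Hbegf) and none lower, against 10.0% and 5.09% of 12920 genes. The median log2 ratio of experimental to control over the 10 genes was 0.99 at 1 day and 0.67 at 1 week, and over all genes -0.0054 and 0.12. These sums cover 21092 control and 15359 experimental keratinocytes of 1 day, and 6206 and 3001 of 1 week. The 1-week control cells counted here include a deep cluster of 122 cells, with none from the experimental library, that was led by Crabp1 and Vim and had Dcn and Cd207, genes of fibroblasts and Langerhans cells, among its leading genes. Without it Ereg stood at a log2 ratio of 2.31, Btc at 2.15 and Hbegf at 1.03.

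Amphiregulin, encoded by Areg, is a ligand of Egfr. It stood at 47.8 CPM in control and 297 in experimental keratinocytes at 1 day, which is 2.64 on the log2 scale (2.59 to 2.68). The 1-week levels were 92.1 and 172, a log2 ratio of 0.90 (0.84 to 0.96), short of 2-fold. Heparin-binding EGF-like growth factor, Hbegf, a ligand known from wounded epidermis, went from 188 to 791 CPM at 1 day (log2 ratio 2.07, 2.05 to 2.09). At 1 week Hbegf stood at 177 and 366 (1.05, 1.01 to 1.09), and it was past 2-fold under 10 of 13 alternative ways of processing. In these sums both genes were higher in the experimental library at each time. Areg at 1 week was near 0 (0.05 and -0.01) when keratinocyte classes were weighted equally, as described with those weights. Epiregulin, Ereg, went from 49.0 to 164 at 1 day (1.74, 1.70 to 1.79) and from 37.5 to 173 at 1 week (2.20, 2.13 to 2.28). Under the same equal weights, where granular-like cells count most for Ereg, its 1-day log2 ratio was 0.01 and -0.10.

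Epigen, Epgn, a ligand of low affinity, went from 116 to 287 CPM at 1 day (1.30, 1.27 to 1.34) and from 152 to 193 at 1 week (0.34, 0.29 to 0.39). Its 1-week direction depended on how cells were combined: the mean of single-cell levels gave a log2 ratio of -0.45. Betacellulin, Btc, was scarce: 3.64 and 15.1 CPM at 1 day (2.05, 1.88 to 2.21) and 6.37 and 28.1 at 1 week (2.14, 1.95 to 2.33). Without removal of doublets the 1-day log2 ratio of Btc was 0.48. Transforming growth factor alpha, Tgfa, stood at 59.8 and 81.7 at 1 day (0.45, 0.40 to 0.50) and at 27.1 and 50.8 at 1 week (0.91, 0.80 to 1.01), within 2-fold at both times.

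The receptors differed little between libraries. Egfr stood at 103 and 90.9 CPM at 1 day (log2 ratio -0.18, -0.22 to -0.14) and at 188 and 155 at 1 week (-0.27, -0.32 to -0.22). Erbb2, which has no ligand of its own and pairs with the other receptors, stood at 30.5 and 38.8 at 1 day (0.35, 0.27 to 0.42) and 44.5 and 58.8 at 1 week (0.40, 0.31 to 0.49). Erbb3, a receptor of neuregulins with a weak kinase, stood at 89.2 and 104 at 1 day (0.22, 0.18 to 0.27) and 107 and 118 at 1 week (0.14, 0.08 to 0.20). The inhibitor Errfi1 went from 267 to 429 at 1 day (0.68, 0.66 to 0.71) and from 307 to 420 at 1 week (0.45, 0.42 to 0.48). Egfr was the 1 gene of the 10 below its control at both times.

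**Figure D1:**
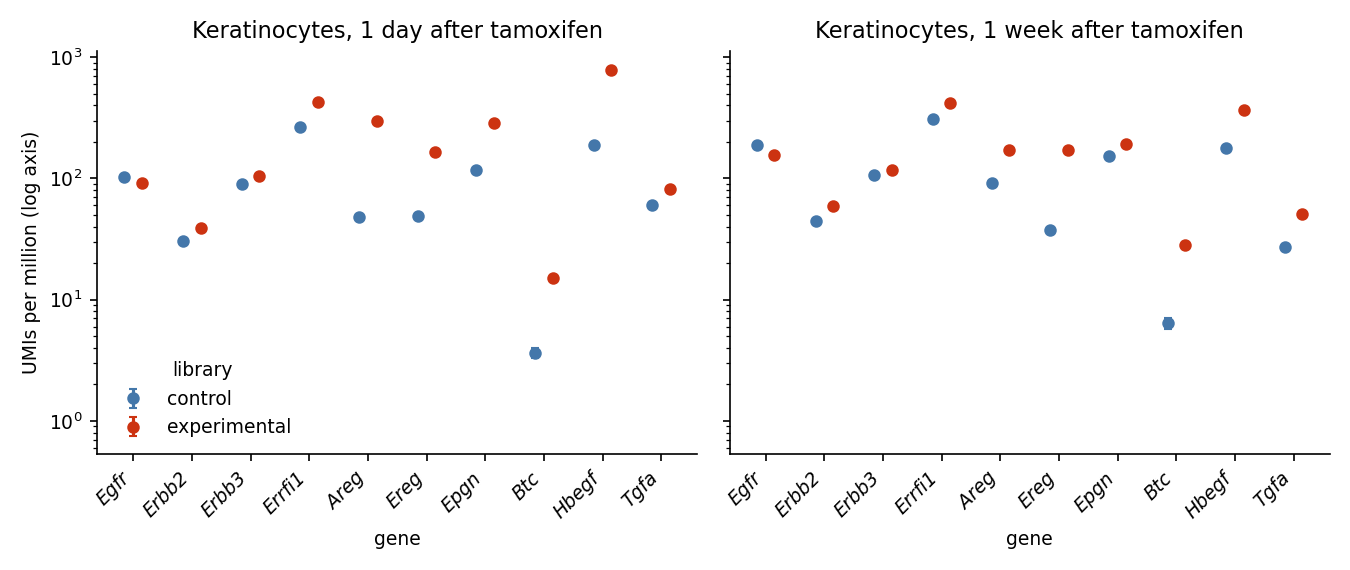
Level of each gene in keratinocytes of the control (blue) and experimental (red) library, in CPM on a log axis, 1 day (left) and 1 week (right) after tamoxifen. Points are single libraries and bars 95% counting intervals, mostly smaller than the points. Areg, Ereg, Btc and Hbegf lie apart between libraries at both times (Hbegf at 188 and 791 at 1 day), and Egfr, Erbb2 and Erbb3 lie close together.

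The libraries also differed in which keratinocytes they held. At 1 day basal-like cells numbered 4803 in the control and 475 in the experimental library, and granular-like cells, the last living layer, 371 and 1445. At 1 week basal-like cells numbered 2072 and 19, suprabasal-like cells 1110 and 7 and sebaceous-like cells 30 and 323, so these classes could not enter an equal weighting. When every keratinocyte class with at least 50 cells in both libraries was given equal weight, 3 of the 10 genes stayed at least 2-fold higher at 1 day: Areg (log2 ratio 1.56), Hbegf (1.39) and Epgn (1.14). None was 2-fold lower, and of all genes 3.07% were higher and 1.37% lower under this weighting. Ereg then stood at 0.01 and Btc at 0.82. The weighting averages the levels of the classes before the ratio is formed, so a class with a high level counts most. Ereg and Btc were highest in granular-like cells, and at both times the weighted Ereg ratio mostly follows that class. It does not describe Ereg in the other classes, whose ratios are given below. One of these classes pools the keratinocytes of no class, whose clusters were unevenly split: one led by Slpi held 6 control and 4426 experimental cells, and one led by Mt4 3667 and 367. With the named classes alone, 2 of the 10 were at least 2-fold higher at 1 day, Areg (1.07) and Hbegf (1.1), with Epgn at 0.92, Btc at 0.82 and Ereg at -0.10, and 3.14% of all genes were higher and 1.47% lower. At 1 week the weighting with the cells of no class left Ereg at 1.61, Hbegf at 1.12 and Epgn at 0.75, with Areg at 0.05 and Btc at 0.56, and the named classes alone gave Ereg 1.69, Hbegf 1.21 and Areg -0.01. Both forms thus left 2 of the 10 at least 2-fold higher and none lower at 1 week, against 4.85% and 6.54% of all genes with the cells of no class and 5.57% and 8.06% without them. With the cells of no class the receptors stayed between -0.24 and 0.59, and Errfi1 stood at 0.74 at 1 day and 0.63 at 1 week. The weighting covered 8 classes at 1 day and 5 at 1 week, or 7 and 4 named ones, including at 1 week a Krt6b-led cluster with cycling markers. As described below, that cluster may join unlike cells of the libraries. Both forms and the sum without the Crabp1-led cluster were chosen after the data were seen.

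**Figure D2:**
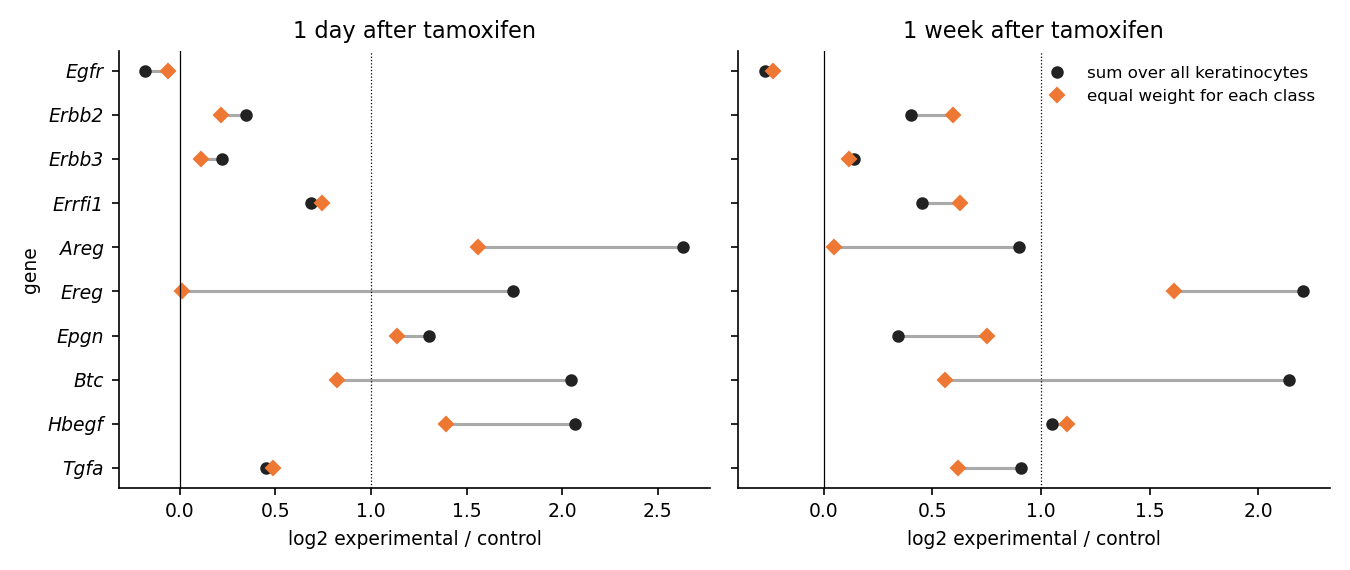
Log2 ratio of experimental to control in keratinocytes for each gene, from the sum over all keratinocytes (black circles) and with equal weight for each class, the cells of no class being one of them (orange diamonds), 1 day (left) and 1 week (right). The dotted line marks 2-fold. Ereg, for which granular-like cells count most in the weighted form, moves from 1.74 to 0.01 at 1 day. Hbegf stays past 2-fold at both times.

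Among the named keratinocyte classes of the controls, the ligands differed in where they were highest, with Ereg and Btc sharing the granular-like cells. Keratinocytes of no class and cells of other lineages are left out of these rankings. At 1 day Ereg stood at 1089 CPM (1056 to 1123) there, 52.0 in suprabasal-like, 28.0 in upper hair follicle-like and under 5 in basal-like (4.6), cycling (3.41), bulge or outer root sheath-like (3.70) and sebaceous-like (3.11) cells. Those last 4 do not differ beyond their counting intervals. At 1 week granular-like cells again held the most, 488, against 0.34 in basal-like cells. Btc was highest in the same granular-like cells, at 61.7 at 1 day and 146 at 1 week, with upper hair follicle-like cells next at 7.92 and 20.4. Without doublet removal the granular-like cells of the 1-day control held Btc at 273. Epgn had the opposite place: 329 and 393 CPM in basal-like cells of the 1-day and 1-week controls, 229 in cycling cells of the 1-day control and 193 in the Krt6b-led cluster with cycling markers of the 1-week control, against 21.0 and 8.21 in upper hair follicle-like and 13.4 and 18.8 in bulge or outer root sheath-like cells.

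The other members are ranked over the same named keratinocyte classes. Areg in the 1-day control was highest there in suprabasal-like (113) and granular-like cells (110), which do not differ beyond counting error. Upper hair follicle-like cells (94.0) came next, and bulge or outer root sheath-like cells (7.49) were lowest. T cell-like cells, described below, held more Areg than any of these classes. In the 1-week control upper hair follicle-like cells held 275 and bulge or outer root sheath-like cells 1.86. Tgfa was highest in upper hair follicle-like cells at both times, at 111 and 59.6. Hbegf was spread more evenly: its control levels ran from 83.0 in sebaceous-like to 274 in upper hair follicle-like cells at 1 day, and from 119 in the Krt6b-led cluster to 289 in granular-like cells at 1 week. Erbb2 and Erbb3 were both highest in upper hair follicle-like cells, at 49.8 and 147 at 1 day and 65.7 and 180 at 1 week. Egfr was highest in basal-like cells at 1 day (129) and in bulge or outer root sheath-like cells at 1 week (254).

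**Figure D3:**
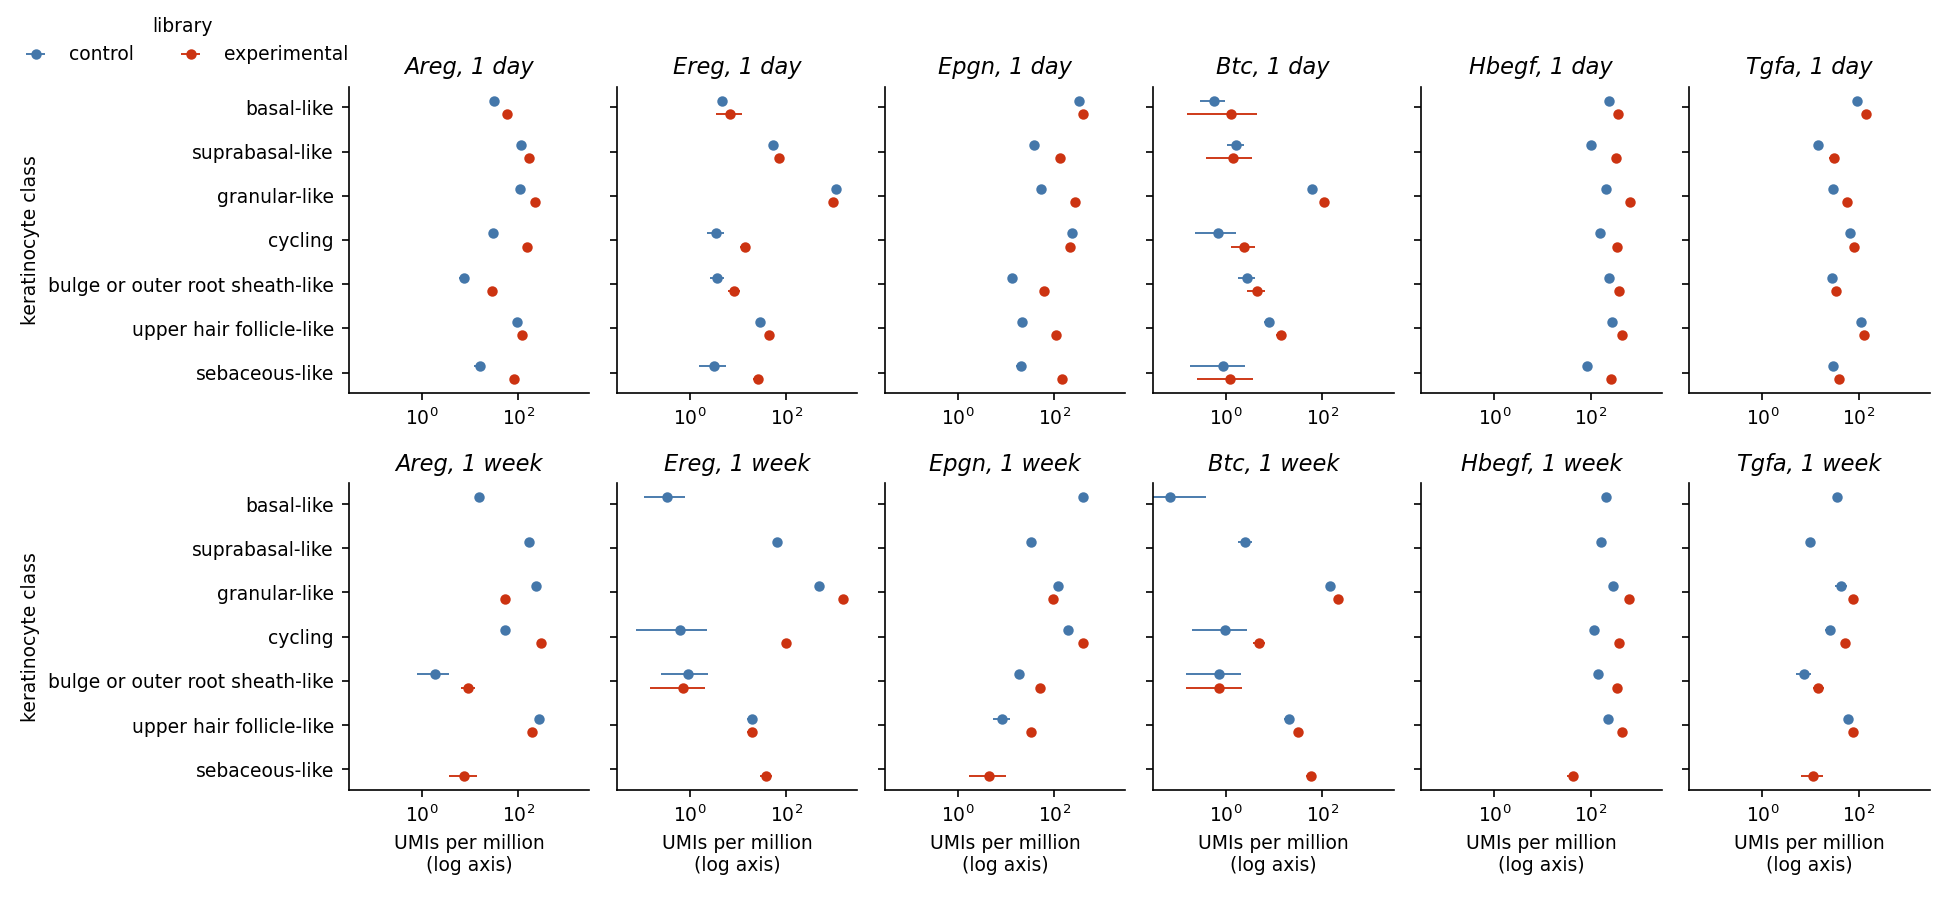
Level of the 6 ligands in 7 keratinocyte classes, in CPM on a log axis, control in blue and experimental in red, 1 day (upper row) and 1 week (lower row). Bars are 95% counting intervals, and a class with fewer than 50 cells in a library has no point. Ereg and Btc lie farthest right in granular-like cells (Ereg 1089 in the 1-day control) and Epgn in basal-like cells of the controls.

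In upper hair follicle-like cells Epgn was past 2-fold at 1 day in each of 3 clusterings, while in bulge or outer root sheath-like cells this depended on the clustering. In upper hair follicle-like cells it went from 21.0 to 107 CPM at 1 day (log2 ratio 2.35, 2.11 to 2.59) and from 8.21 to 33.3 at 1 week (2.02, 1.43 to 2.66). The 1-week value rested on 27 control and 174 experimental UMIs, so Epgn passed the minimum there through the experimental cells. In bulge or outer root sheath-like cells, which hold the follicle stem cells, it went from 13.4 to 59.8 (2.15, 1.86 to 2.45) and from 18.8 to 50.7 (1.43, 1.05 to 1.82). Without doublet removal and at a coarser clustering the log2 ratio in upper hair follicle-like cells was 1.56 and 2.35 at 1 day and 2.87 (22 control UMIs) and 1.68 (219 control UMIs) at 1 week. In bulge or outer root sheath-like cells it was 0.29 and 0.39 at 1 day, at control levels of 93.6 and 78.8 CPM in place of 13.4, and 0.82 and 1.71 at 1 week. In the 3 bulge or outer root sheath-like clusters of 1 day 67.3% to 74.0% of cells were shallow and close in profile to the lowest-UMI barcodes, against 18.4% at 1 week. In those lowest-UMI barcodes Epgn stood at 77.2 and 297 at 1 day, and their part in the follicle values was not tested. Errfi1 in upper hair follicle-like cells stood at 148 and 313 at 1 day (1.08; 0.73 and 0.95 in the other clusterings) and at 197 and 429 at 1 week (1.12; 1.08 and 0.51). In bulge or outer root sheath-like cells Errfi1 went from 273 to 442 at 1 day (0.69) and from 144 to 364 at 1 week (1.34).

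Areg and Hbegf were past 2-fold in fewer of these comparisons. Areg in upper hair follicle-like cells stood at 94.0 and 120 at 1 day (0.35) and at 275 and 193 at 1 week (-0.51), within 2-fold. In bulge or outer root sheath-like cells Areg went from 7.49 to 28.9 at 1 day (1.95, 1.54 to 2.37, and 1.21 and 1.62 in the other clusterings), and at 1 week it stood at 1.86 and 9.09 with fewer than 50 UMIs in all. Hbegf in these cells stood at 246 and 393 at 1 day (0.67) and at 140 and 351 at 1 week (1.32). In upper hair follicle-like cells 2 of the 10 genes were at least 2-fold higher and none lower at each time, against 1.9% of all genes higher and 0.615% lower at 1 day and 5.88% and 1.45% at 1 week. In bulge or outer root sheath-like cells 3 of 10 were higher and none lower at 1 day, against 1.66% and 0.374%. Of these 3, Areg alone stayed past 2-fold in the other clusterings, and Ereg had 36 and 46 UMIs. At 1 week it was 4 of the 7 with enough UMIs, and none lower, against 2.8% and 2.7%. Nothing is read from the 1-week count in upper hair follicle-like cells or from either count in bulge or outer root sheath-like cells, since Epgn (27 control UMIs) in the first and Ereg and Tgfa (31 control UMIs) in the second passed the minimum only with the experimental cells. Trp63 itself moved less in bulge or outer root sheath-like cells (401 and 302 at 1 day) than in keratinocytes as a whole, and the part of retained Trp63 in these values was not tested.

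In the suprabasal-like and granular-like classes, Hbegf was past 2-fold wherever both libraries held 50 cells, though not every clustering gave such classes. The coarser one had no suprabasal-like class and 16 granular-like control cells at 1 day, and without doublet removal 22 granular-like control cells were left at 1 week. The 1-day cluster led by Mt4, with Krt1 among its leading genes (3667 control and 367 experimental cells), had no class and is not covered here. Hbegf stood at 102 and 334 CPM in suprabasal-like cells at 1 day (log2 ratio 1.71, and 1.51 without doublet removal). In granular-like cells it stood at 210 and 653 at 1 day (1.64, and 1.75 without doublet removal) and at 289 and 637 at 1 week (1.14, and 1.27 with the coarser clustering). Among the named keratinocyte classes of the 1-day control, Epgn was highest in basal-like and cycling cells. At 1 day it stood at 38.1 and 133 in suprabasal-like (1.80) and at 52.6 and 273 in granular-like cells (2.38). At 1 week granular-like cells did not show this (118 and 91.8, log2 ratio -0.37). In the lowest-UMI barcodes of the 1-day control and experimental libraries Epgn stood at 77.2 and 297 and Hbegf at 132 and 605. Their part in the 1-day values of these layers was not tested. In suprabasal-like cells of 1 day 4 of the 9 members with enough UMIs were at least 2-fold higher and none lower, against 2.73% of all genes higher and 2.33% lower. Without doublet removal Epgn stood at 1.53 there and Btc at 2.04, while Errfi1 (0.86), Areg (0.80) and Ereg (0.80) were short of 2-fold. In granular-like cells it was 4 of 10 and none lower at 1 day, against 7.29% and 2.2%, and 2 higher and 1 lower at 1 week, against 8.11% and 28.5%. The 1-day count depended on doublet removal, without which Btc was past 2-fold lower (-1.66) and Errfi1 stood at 0.92.

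Ereg in granular-like cells was not higher at 1 day, at 1089 and 936 (-0.22, -0.27 to -0.16), and at 1 week it went from 488 to 1527 (1.65, 1.52 to 1.77). The 1-week class holds 70 control and 160 experimental cells. Clusters of shallow cells with granular genes were set aside at that time. One was led by Btc, with Flg2 and Lor (325 control and 1 experimental cells), and another had Flg, Lor and Ereg among its leading genes (14 and 1274). Btc in the 1-day class came largely from a cluster led by Lce1m, a late cornified envelope gene, of 16 control and 297 experimental cells, where experimental Btc stood at 605 (561 to 652). In the other granular-like cluster, led by Wfdc21, Btc stood at 24.9 and 26.6. Without doublet removal the 1-day granular-like class held Btc at 273 in the control and 86.2 in the experimental library (-1.66, -1.79 to -1.53). Areg in granular-like cells was higher at 1 day (110 and 228, log2 ratio 1.05) and lower at 1 week (234 and 52.6, -2.16, -2.46 to -1.86). The 1-day ratio was 2.06 without doublet removal and the 1-week one -2.35 with the coarser clustering. In that 1-week class the summed level of 11 T cell markers was 1119 CPM in the control and 86.2 in the experimental library, all 11 markers being above 0 in both. The part of T cell RNA in the Areg value was not tested.

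In basal-like cells differences were small at 1 day. None of the 9 members with enough UMIs reached 2-fold, against 2.95% of all genes higher and 4.13% lower. Areg stood at 30.8 and 59.3 (0.94, 0.62 to 1.26), Hbegf at 244 and 376 (0.62), Tgfa at 94.0 and 142 (0.59) and Epgn at 329 and 396 (0.27). The 475 experimental cells of this class still held Trp63 at 334 CPM, against 128 over all experimental keratinocytes. At 1 week only 19 experimental cells had this name, too few to compare.

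In cycling keratinocytes of 1 day Areg went from 29.6 to 150 CPM (log2 ratio 2.34, 2.13 to 2.57), Ereg from 3.41 to 13.9 (2.03) and Hbegf from 157 to 349 (1.16). These were the 3 of 9 members with enough UMIs that were at least 2-fold higher, with none lower, against 3.28% and 1.75% of all genes. Ereg, with 25 control and 77 experimental UMIs, passed the minimum through the experimental cells, so nothing is read from the count. Sebaceous-like cells of 1 day held Areg at 16.1 and 82.9 (2.36), and 4 of their 9 members with enough UMIs were at least 2-fold higher and none lower, against 5.04% and 1.14%. One of the 4, Ereg, had 11 control and 65 experimental UMIs and passed the minimum through the latter, so nothing is read from this count either.

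The 1-week cluster that carried cycling markers was of another kind. Of its 10 leading genes, 4 were cell cycle genes (Ube2c, Mki67, Anln and Top2a) and the others, led by the wound keratin Krt6b, included Sprr2a3, Sprr1b and Stfa3. It is called the Krt6b-led cluster here, and its values were not compared with those of 1 day. It held 264 control and 488 experimental cells. With a coarser clustering 137 control and 6 experimental cells were named cycling, and without doublet removal 163 and 6. The differences within it thus rest on 1 clustering. Whether its control and experimental cells are of 1 kind was not tested, so its ratios may compare unlike cells. In that clustering Areg stood at 52.3 and 304 CPM (2.54, 2.32 to 2.77), Hbegf at 119 and 383 (1.69), Tgfa at 25.1 and 52.8 (1.07), Epgn at 193 and 394 (1.03) and Erbb2 at 28.2 and 57.1 (1.02). Ereg stood at 0.62, which is 2 UMIs, and 96.7 (7.29, 5.43 to 10.3), and Btc at 0.93 and 4.85 (2.39, 0.76 to 4.71), both passing the minimum of UMIs through the experimental cells. Egfr stood at 195 and 137 (-0.51). In this cluster 10.7% of all genes were at least 2-fold higher and 11.7% lower.

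**Figure D4:**
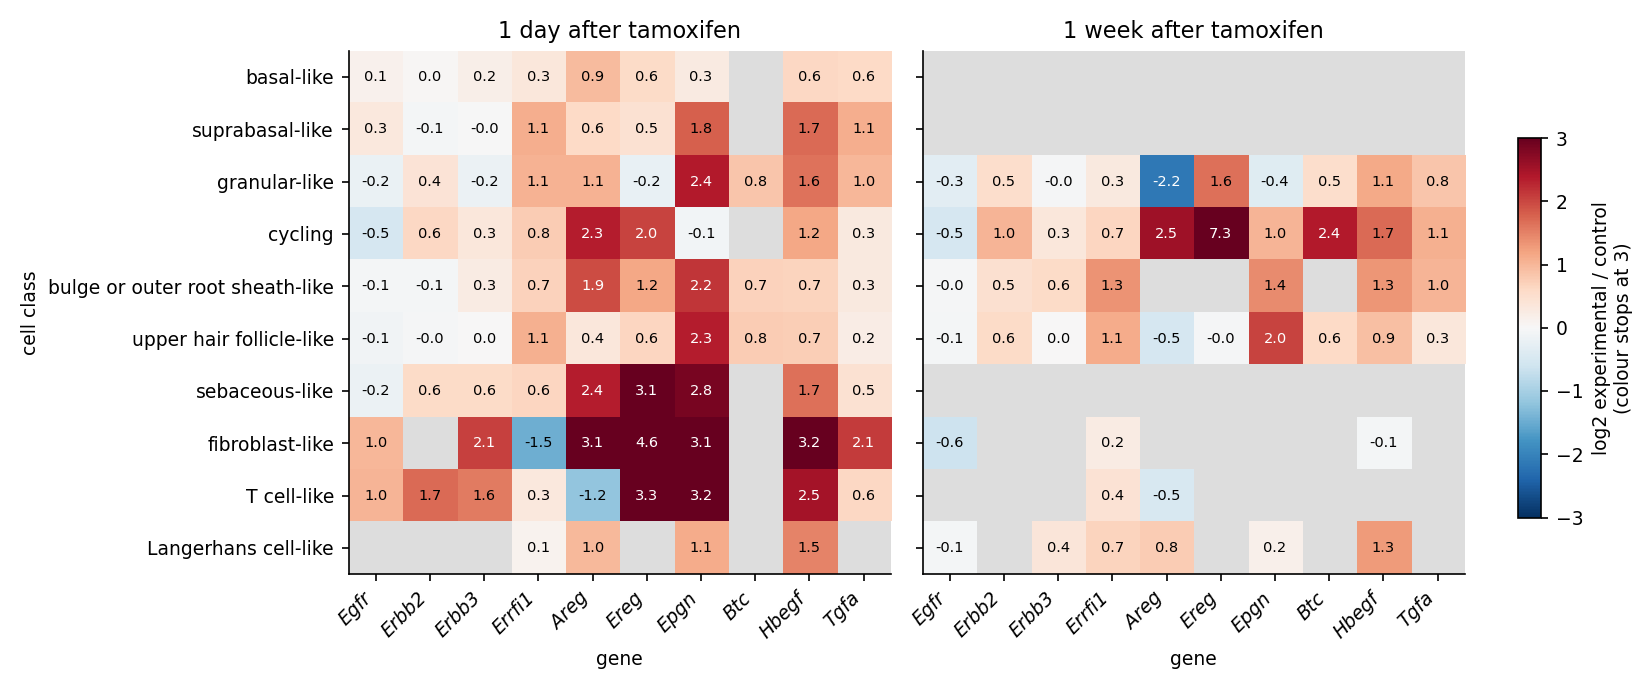
Log2 ratio of experimental to control for each gene (columns) in 10 cell classes (rows), 1 day (left) and 1 week (right), red for higher and blue for lower in the experimental library. Grey marks classes with fewer than 50 cells in a library, genes with fewer than 50 UMIs over both, or no UMI in the control. Epgn is red in upper hair follicle-like cells at 1 day (2.35), and at 1 week (2.02) it passed the minimum of UMIs only with the experimental cells. The receptors stay pale in all keratinocyte classes apart from Erbb2 in the row marked cycling at 1 week, which is the Krt6b-led cluster.

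A cluster of unclassed keratinocytes led by Slpi, a secreted protease inhibitor, held 4426 cells of the 1-day experimental library. Hbegf stood at 1436 CPM there, Areg at 593, Epgn at 476 and Ereg at 107, with Trp63 at 36.4. A cluster led by Krt8, the simple-epithelium keratin, was counted apart from keratinocytes because Merkel cell markers outnumbered keratinocyte markers among its leading genes. All 16 keratinocyte markers were present in it all the same, summing to 42981 CPM at 1 day and 56994 at 1 week, beside 43254 and 49262 in experimental keratinocytes. It held 4768 experimental cells and 1 control cell at 1 day, with Epgn at 813, Hbegf at 979, Errfi1 at 663 and Areg at 426. Ereg was low there (34.4). At 1 week 431 Krt8-led experimental cells held Hbegf at 795, Epgn at 598, Areg at 280 and Ereg at 123, and Erbb2 and Erbb3 at 108 and 169. At 1 day both clusters held Areg, Hbegf, Epgn and Tgfa above the sum over experimental keratinocytes and Ereg and Btc below it, with Btc at 1.20 in Krt8-led and 1.06 in Slpi-led cells. The Slpi-led cells are themselves part of that sum, 4426 of 15359 experimental keratinocytes, and the Krt8-led cells are not. With 6 control cells in the Slpi-led and 1 in the Krt8-led cluster at 1 day and none in the Krt8-led cells at 1 week, no ratio was formed. With the Krt8-led cells counted as keratinocytes, Epgn stood at a log2 ratio of 1.77 at 1 day and 0.76 at 1 week.

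The 1-day matrices also count 4 antibody hashtags, of which hashtags 1 to 3 carried signal (3056647 to 6137708 UMIs each) and the fourth at most 2256. The labels do not say what a hashtag marks, so the groups are a description of spread within a library and no test was made. Of the keratinocytes, 12808 of 21092 control and 5908 of 15359 experimental cells had 1 clear hashtag. Areg stood at 73.1, 30.7 and 54.0 CPM under the 3 control hashtags and at 313, 524 and 172 under the experimental ones. Hbegf stood at 140, 147 and 236 against 946, 914 and 679. Every experimental hashtag lay above every control hashtag for both.

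The same held for Ereg (30.8, 62.1 and 78.2 against 149, 212 and 159), Epgn (103, 135 and 125 against 305, 299 and 225), Errfi1 (221, 274 and 289 against 443, 512 and 367) and Erbb2 (28.2, 33.1 and 30.2 against 38.6, 44.1 and 37.1). These 6 of 10 genes stand against 17.4% of all genes with the experimental hashtags above and 16.9% below. For Erbb2 the counting intervals of some hashtags overlapped (30.9 to 35.4 in the control and 33.2 to 41.3 in the experimental library). Egfr (80.1, 128 and 97.6 against 93.8, 75.9 and 107), Erbb3, Tgfa and Btc overlapped. Btc stood at 2.77, 5.80 and 4.14 against 14.1, 5.57 and 10.1, so the ranges overlapped through 1 experimental hashtag. In upper hair follicle-like cells 3 of the 10 were higher without overlap, Epgn (14.9 to 26.8 against 99.8 to 104), Errfi1 (132 to 158 against 269 to 356) and Hbegf (173 to 364 against 442 to 485), and none lower, against 8.25% and 7.92% of all genes. In bulge or outer root sheath-like cells, with 79 to 258 cells a hashtag, 5 of the 10 were higher without overlap, against 6.02% of all genes. They were Areg (1.71 to 7.98 against 25.8 to 47.7), Epgn (10.3 to 12.2 against 32.6 to 122), Ereg, Errfi1 (194 to 378 against 409 to 512) and Hbegf (95.7 to 257 against 322 to 361). Ereg rested on 2 to 4 UMIs a hashtag. In all 5 the counting intervals of some control and experimental hashtags overlapped. For Areg they were 2.47 to 17.8 and 12.9 to 46.2, and for Errfi1 330 to 432 and 350 to 474. Egfr was lower without overlap of the levels (92.4 to 108 against 62.8 to 80.6), against 6.1%. Its counting intervals overlapped too (69.4 to 121 and 54 to 116), so nothing is read from either count in this class.

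**Figure D5:**
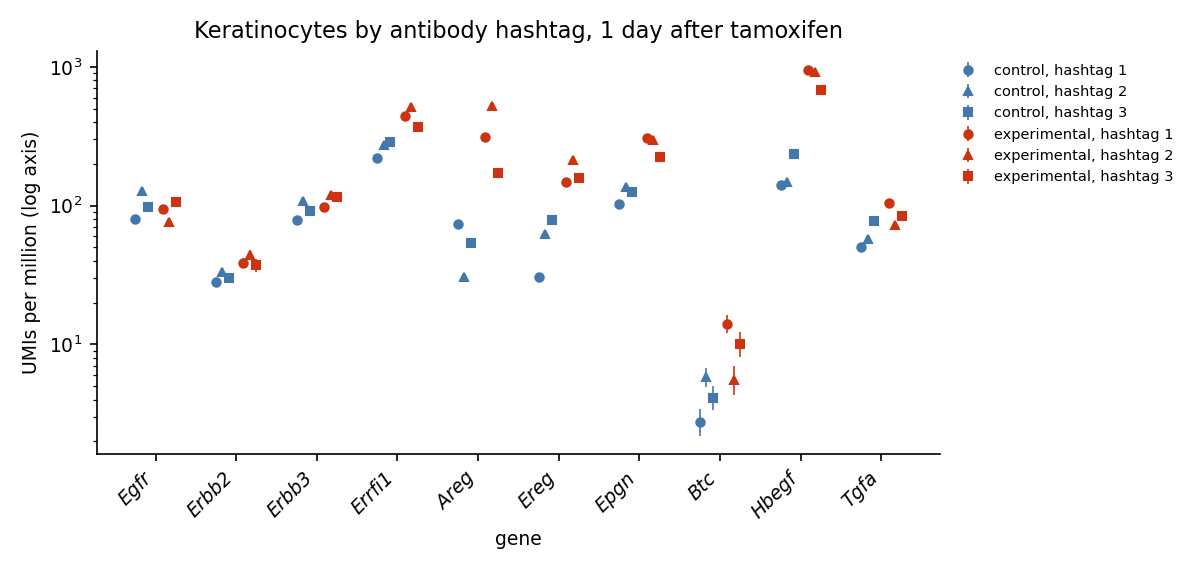
Level of each gene in 1-day keratinocytes split by antibody hashtag, in CPM on a log axis, control in blue and experimental in red, with 1 symbol per hashtag and 95% counting intervals. Hbegf runs from 140 to 236 in the control and from 679 to 946 in the experimental library, and Egfr, Erbb3, Tgfa and Btc overlap.

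Of all named classes with at least 50 cells, T cell-like cells held the most Areg in each library. The 1-day class had 755 control and 420 experimental cells, the 1-week class 224 and 113. They held Areg at 1700 CPM in the control and 754 in the experimental library at 1 day (log2 ratio -1.17, -1.28 to -1.07), and at 1927 and 1391 at 1 week (-0.47, -0.65 to -0.29). Cells with at least 1000 UMIs were thinned to 1000, which left out 193 of 755 control cells at 1 day and 18 of 224 at 1 week and no experimental cell. Of the cells left, 50.5% of control and 35.7% of experimental T cell-like cells at 1 day had an Areg UMI, and 44.2% and 40.7% at 1 week (over all cells, unthinned, 47.8%, 56.9%, 47.8% and 46.9%). In Langerhans cell-like cells, which lack such a level, the thinned shares were 1.58% and 5.15% at 1 day. The median depth of 1-day T cell-like cells was 1242 UMIs in the control and 2879 in the experimental library, that of the 1-week ones 1975 and 1875, and that of 1-day Langerhans cell-like cells 2418 and 2175.5.

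The T cell-like classes of the 1-day libraries differed in content as well. Their 11 T cell markers summed to 9706 CPM in the control and 2563 in the experimental library, and their 16 keratinocyte markers to 14826 and 33253. At 1 week the T cell markers summed to 18912 and 16879 and the keratinocyte markers to 6415 and 3891. Epgn in 1-day T cell-like cells stood at 38.4 and 353, Ereg at 6.64 and 63.7 and Hbegf at 106 and 602. At 1 week Epgn stood there at 44.3 and 7.92 and Hbegf at 10.1 and 27.7, with fewer than 50 UMIs each. In the lowest-UMI 10% of barcodes of the 1-day experimental library Hbegf stood at 605, Epgn at 297, Areg at 249 and Ereg at 122, and in those of the control at 132, 77.2, 125 and 45.8. The part of keratinocyte RNA in the ligand values of immune and stromal classes was not tested. At 1 day 6 of the 9 genes with enough UMIs were at least 2-fold higher in T cell-like cells and 1 lower, against 9.87% and 12.0% of all genes. Of these, Ereg (9 control and 99 experimental UMIs), Erbb2 (15 and 56) and Erbb3 (44 and 149) passed the minimum through the experimental cells, so nothing is read from the count. At 1 week neither of the members with enough UMIs, Areg and Errfi1, reached 2-fold, against 1.99% higher and 3.7% lower.

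Fibroblast-like cells had the highest Errfi1 of the named classes: 2600 CPM in the control and 944 in the experimental library at 1 day (-1.46, -1.57 to -1.35), and 1694 and 2006 at 1 week (0.24, 0.14 to 0.35). The class had 476 control and 270 experimental cells in the 1-day pair, and 330 and 185 in the later one. Their 16 keratinocyte markers summed to 12862 and 33244 at 1 day, and their 7 fibroblast markers to 3034 and 2312. In the experimental cells of 1 day Epgn stood at 374, Hbegf at 734, Areg at 184 and Ereg at 111, and in the control cells at 43.6, 77.2, 21.3 and 4.47. At 1 week they were low in both libraries: Epgn at 21.7 and 22.6, Areg at 4.33 and 1.74 and Hbegf at 43.3 and 41.7. Egfr in these cells stood at 194 and 127 at 1 week (-0.61, -1.02 to -0.23). At 1 day 6 of the 8 genes with enough UMIs were at least 2-fold higher and 1 lower, against 10.1% and 11.5% of all genes. Of these 6, all but Hbegf (69 control UMIs) had 4 to 39 control UMIs and passed the minimum through the experimental cells, so nothing is read from the count. At 1 week none of the 3 with enough UMIs reached 2-fold, against 2.54% and 2.6%.

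Endothelial-like cells at 1 week, 115 and 86, held Hbegf at 249 and 347 (0.48, 0.12 to 0.84). Langerhans cell-like cells held little of any ligand at 1 day (Hbegf 29.8 and 83.7, Epgn 27.8 and 60.5) and little receptor (Egfr 18.9 and 20.5). At 1 week their Ereg was 0 of 700309 UMIs in the control, which allows up to 4.28 CPM, and 69.9 in the experimental library, where 2.53% of 79 cells carried all of it. Among Langerhans cell-like cells 2 of the 4 members with enough UMIs were at least 2-fold higher at 1 day (Hbegf and Epgn) and none lower, against 1.97% and 0.673% of all genes. Both had under 50 control UMIs (30 and 28) and passed the minimum through the experimental cells, so nothing is read from the count. At 1 week Hbegf stood at 106 and 255 (1.27, 0.88 to 1.67), where 6.94% of all genes were higher and 3.62% lower, and Ereg passed the minimum of UMIs through the experimental cells alone. The 16 keratinocyte markers summed to 5807 and 5978 CPM in Langerhans cell-like cells at 1 day and to 23642 and 19786 at 1 week, and the 7 fibroblast markers to 10.0 and 331 at 1 week. Their part in these values was not tested.

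Of a list of 50 further pathway genes, 47 had enough UMIs in keratinocytes, and the share of them past 2-fold was near that of all genes at both times. At 1 day 2 of the 47 were at least 2-fold higher and none lower, beside 5.17% and 2.3% of all genes. These were Phlda1 (383 and 866 CPM, log2 ratio 1.18) and Dusp5 (131 and 275, 1.07), the first a growth factor response gene and the second a phosphatase of ERK. Egr1, an immediate early transcription factor, followed at 272 and 526 (0.95). At 1 week 5 of the 47 were higher and 1 lower, beside 10.0% and 5.09% of all genes. Etv4, an ETS factor induced by ERK, went from 3.53 to 17.1 (2.27), Dusp4 from 2.34 to 9.82 (2.07), and Fosl1, an AP-1 subunit, stood at 777 and 289 (-1.43). The other 3 higher were Socs3, Map2k1 and Spry4. No pathway gene reached 2-fold in the same direction at both times. The median log2 ratio of the 47 was 0.09 at 1 day and 0.21 at 1 week, beside -0.0054 and 0.12 over all genes. None of the 4 genes of ligand release, Adam10, Adam17 and the iRhoms Rhbdf1 and Rhbdf2, reached 2-fold. Of the remaining receptor and ligands, Erbb4, Egf and Nrg3 had too few UMIs.

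Genes whose level followed a member most closely over named cell classes were sought among 8800 genes, with 23 class sums at 1 day and 20 at 1 week that share libraries and depth, so the correlations are descriptions. Ereg went with Sdr9c7 (Pearson's r 0.96 at 1 day and 0.95 at 1 week) and Csta1, genes of the cornifying layer. Btc went with Anxa9 (0.95 and 0.94). Erbb2 and Erbb3 went with each other (0.91 and 0.93), and the nearest gene was Crb3 for Erbb2 (0.93 and 0.95) and Fam83b for Erbb3 (0.93 and 0.96). Epgn went with Il22ra2 (0.92 and 0.91), Hbegf with Epha2 (0.92 and 0.84), Egfr with Map3k20 (0.86 and 0.92) and Areg with Galnt6 (0.86 and 0.85). Tgfa with Plk2 (0.79 and 0.83) and Errfi1 with Nrn1 (0.80 and 0.77) were looser.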

How the data were processed

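Each library is 1 matrix of raw UMI counts per gene and barcode, deposited by the authors, for 32285 genes. Cell Ranger 5.0.1, Seurat and mm10 are named in the submitters' processing notes. Raw totals ran from 68191870 to 179736563 UMIs.

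Kept barcodes had 500 or more UMIs, 300 or more genes and a mitochondrial share of up to 15%. Doublets were ranked with Scrublet in scanpy 1.11.5 and 0.8% per 1000 barcodes was removed (14.7% to 25.5% of a library), because the automatic threshold marked 19.4% in the 1-day control and almost none elsewhere. Cells were clustered per time point (2000 variable genes, 30 components, 15 neighbours, Leiden resolution 1, leidenalg 0.10.2) without the members and pathway genes, and named from marker lists, with naming limits set after the data were seen. At 1 week, clusters with at least 50% of cells under 3000 UMIs and like the lowest-UMI barcodes were set aside as low-UMI, 12275 of 19915 control and 11241 of 15639 experimental cells. This was not done at 1 day, where the 3 bulge or outer root sheath-like clusters (67.3% to 74.0%) the Lce1m-led cluster (53.7%) and the T cell-like, Langerhans cell-like and fibroblast-like clusters, among others, also passed that limit. The cells kept numbered 15639 to 23741 per library.

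UMIs were summed per class and library and divided by the class total. Poisson intervals for levels and conditional binomial intervals for ratios are exact (scipy 1.17.1) and cover counting error only. A gene was counted at 2-fold with at least 50 UMIs over both libraries, in classes of at least 50 cells. There is 1 library per group, so no test was made, and differences between animals or preparations cannot be told apart from the groups. Named pathway genes are those past 2-fold in 1 direction at both times, then the 3 largest at each time. The genes most like a member are the 3 with the highest lower r of the 2 time points, on log2(CPM + 10). TMM factors came from edgeR 4.0.16 in R 4.3.3. The summing and calling were tested on simulated data. At 1 day 12 and at 1 week 13 alternatives were tried. The members and lists were chosen with earlier results of these data known.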

Additional observations from a re-analysis of the deposited data

Results flagged for a closer look

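Some classes of 1 time point stood past 2-fold in opposite directions for the same gene, and these differences between classes were not tested. At 1 day the log2 ratio of experimental to control for Areg was -1.17 in T cell-like cells, against 2.64 in keratinocytes, 1.95 in bulge or outer root sheath-like, 2.34 in cycling, 1.05 in granular-like, 2.36 in sebaceous-like and 3.12 in fibroblast-like cells. The last rests on 19 control UMIs and passed the minimum through the experimental cells, where the 16 keratinocyte markers summed to 33244 CPM against 12862 in the control. In the T cell-like class of 1 day the 11 T cell markers summed to 9706 CPM in the control and 2563 in the experimental library. Its 16 keratinocyte markers summed to 14826 and 33253, and the part of this difference in content in its Areg value was not tested. At 1 week Areg stood at -2.16 in granular-like cells and 2.54 in the Krt6b-led cluster with cycling markers, a class left with 6 experimental cells in the other clusterings. The granular-like class of 1 week had 22 control cells without doublet removal, and its 11 T cell markers summed to 1119 CPM in the control and 86.2 in the experimental library, whose part in the Areg value was not tested. Errfi1 at 1 day stood at -1.46 in fibroblast-like cells, against 1.05 in granular-like, 1.08 in suprabasal-like and 1.08 in upper hair follicle-like cells, which without doublet removal were 0.92, 0.86 and 0.73. Areg in granular-like cells also stood past 2-fold in opposite directions at the 2 time points, 1.05 at 1 day and -2.16 at 1 week, and this was not tested.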

How the results depend on the processing

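No paired analysis was possible because each group is 1 library, and no library could be left out. Of the 12 alternatives at 1 day and 13 at 1 week, 3 and 4 were chosen after the data were seen. Dropping the minimum of UMIs for a gene to be counted could not change these values, since every member had enough UMIs in keratinocytes. The count of members at least 2-fold higher in keratinocytes at 1 day was 5. It was 3 with equal weight for each keratinocyte class and 2 with equal weight for each named class. With the named classes Ereg, for which granular-like cells count most, stood at a log2 ratio of -0.10, and the cause was not tested. The other alternatives gave 4 or 5 at 1 day and 2 to 4 at 1 week, and the count at least 2-fold lower was 0 under all. Apart from equal weights, no share of all genes was formed for the alternatives. Besides Ereg at 1 day, every member kept its direction under all of them except Epgn at 1 week, at -0.45 with the mean of single-cell levels and up to 0.79 without doublet removal, and Areg at 1 week, at -0.01 with equal weight for each named class; the cause was not tested. Areg and Hbegf at 1 day and Ereg at 1 week were past 2-fold under all of them, Epgn at 1 day under all but the named classes (0.92), Hbegf at 1 week under 10 of 13 (0.93 with TMM scaling) and Areg at 1 week under 3 of 13. Class values also depended on the clustering. Epgn in bulge or outer root sheath-like cells at 1 day stood at 2.15, 0.29 without doublet removal and 0.39 with the coarser clustering. Btc in granular-like cells at 1 day stood at -1.66 without doublet removal. The causes were not tested. TMM scaling moved the median over all genes at 1 week from 0.12 to -0.0057, and equal weights moved it to -0.08 with the cells of no class and -0.13 without them. Shallow classes limit Btc and the receptors in immune cells, many of which had fewer than 50 UMIs.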
